A study of Homo sapiens with 4 samples.

Results

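The genes described here encode the RNA helicases of the DEAD-box (DDX) and DEAH-box (DHX) groups and the RNA-binding motif (RBM) proteins, and what was measured is the splicing of their own transcripts. Members were every splicing event whose gene symbol opens with DDX, DHX or RBM followed by a digit, or with RBMX. The rule used no measured value. It took 901 of 121269 events and 81 of 12219 gene symbols, of which 364 events belonged to 34 DDX genes, 181 to 16 DHX genes and 356 to 31 RBM genes. Names are not functions, and 3 symbols that the rule takes encode neither a helicase nor an RBM protein. DDX12P is a pseudogene nearly identical to DDX11, DDX26B is the former name of INTS6L, a relative of a subunit of the Integrator complex, and RBM26-AS1 is a noncoding RNA that runs antisense to RBM26.

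The RNA-seq libraries were made from total RNA of U87MG, an established human cell line whose label calls it a likely glioblastoma. Cells were transfected, by means of lipofectamine 2000, with 2.5 µM of an oligonucleotide. The decoy RBFOXi carries repeats of the sequence bound by the splicing factors RBFOX1 and RBFOX2, and the control SCRM has a scrambled sequence. There were 2 libraries of each. The label of RBFOXi replicate 1 names the dye Cy5 on the oligonucleotide and the labels of the other 3 libraries name no dye. Both groups shared the cell line, the transfection reagent and the dose, and this single line is the only model behind every value below. Per the study's methods the 2 libraries of each group were independent biological replicates, and the labels add nothing on how the cultures were kept apart.

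DEAD-box and DEAH-box proteins use ATP to unwind RNA or to strip proteins from it. Many steps of spliceosome assembly, catalysis and release depend on a particular member. RBM proteins bind RNA mostly through RNA recognition motifs, and many of them promote or repress exons. Several genes of both kinds control their own output by splicing in an exon with a premature stop codon, called a poison exon, which sends the transcript to nonsense-mediated decay. RBFOX proteins bind UGCAUG, favour an exon when they bind in the intron after it, disfavour it when they bind before it, and work in a large complex that holds DDX5. The question here was whether transcripts of this RNA-processing machinery were spliced differently when the RBFOX1/2 decoy was present.

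Each event was given as counts of reads for an inclusion form and a skipping form, and its level is the percent spliced in (PSI), written as a share from 0 to 1. Delta PSI is the mean of the RBFOXi libraries minus the mean of the SCRM libraries. Of the 648 skipped exon events of the members, 271 in 72 genes, covering 238 different exons, had enough reads of both forms to be tested. The skipping form had fewer than 4 reads over the 4 libraries in 350 events, and 27 had too few reads altogether. Tests were also run on 187 of 190 pairs of mutually exclusive exons, on 26 of 35 choices of a 3′ splice site, on 11 of 17 choices of a 5′ splice site and on 9 of 11 retained introns. In all, 75 of the 81 genes had a tested event, and DDX18, DDX20, DDX51, RBM22 and RBMX2 were among the 6 without one. With RBFOXi the skipped exon counts of the members summed to 671976 and 868093, whereas SCRM replicate 1 had 511066 and SCRM replicate 2 had 873483. SCRM replicate 1 was thus the shallowest library for these genes, at 0.447% of its skipped exon counts against 0.539% to 0.646% in the others. It was also the library whose PSI lay farthest from the other 3 in 90 of the 271 skipped exon events, while RBFOXi replicate 1, with the dye, was farthest in 70.

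No skipped exon of a DDX, DHX or RBM gene passed the test. A call asked for an adjusted p below 0.05 together with a delta PSI of 0.1 or more in size, and limma called 0 of the 271 member events, beside 27 of 39615 skipped exon events of all genes (0.0682%). At that share fewer than 1 of 271 events would be called, so a count of 0 does not set the members apart. At an unadjusted p below 0.05 there were 8 member events (2.95%), beside 3.61% of all events. The quasi-binomial F test on the same counts also called 0 member events. The median delta PSI of the members was -8.60e-05, and the median absolute delta PSI was 0.00634. That is below the median difference between the RBFOXi replicates, 0.00711, and between the SCRM replicates, 0.0104. An absolute delta PSI of 0.1 or more was seen in 6 member events (2.21%), against 4.83% of all tested events. The libraries of the 2 groups did not overlap in 77 member events (28.4%, beside 30.8% of all events): 49 of them lay lower with RBFOXi (18.1%, beside 16.4%) and 28 higher (10.3%, beside 14.3%). An exact permutation test of 2 libraries against 2 cannot give a p below 0.333, so p-values here come from the limma fit over all events of a type. Its precision varied from exon to exon. The 95% interval of the log2 odds difference (log2 of inclusion over skipping, RBFOXi minus SCRM) had a median half-width of 2.28, and of 1.32 among the 33 events with a SCRM PSI between 0.1 and 0.9.

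**Figure D1:**
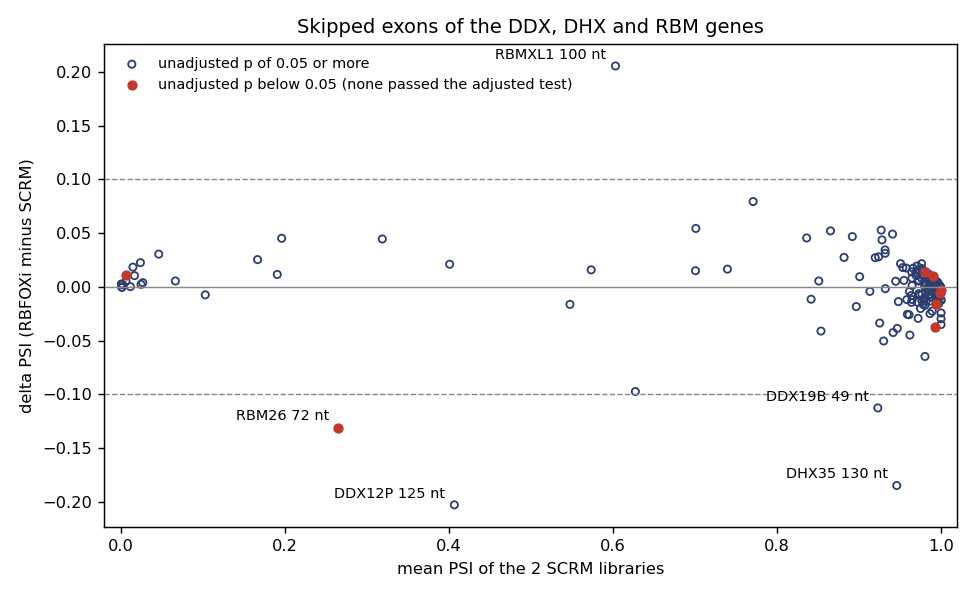
Delta PSI (RBFOXi minus SCRM, vertical axis) of the 238 tested exons of DDX, DHX and RBM genes against their mean PSI in the 2 SCRM libraries (horizontal axis), 1 point per exon. Filled points had an unadjusted limma p below 0.05, dashed lines mark a delta PSI of 0.1 in either direction, and the 5 labelled exons lie beyond them. Most points sit at the right edge, where the exon is nearly always included, and close to 0.

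Most of these exons were constitutive in U87MG. In the SCRM libraries 200 of the 238 exons (84.0%) had a mean PSI above 0.9, 24 (10.1%) lay between 0.1 and 0.9, and 14 (5.88%) lay below 0.1. Over the 30617 tested exons of all genes the shares were 74.8%, 17.9% and 7.25%. Among the 24 exons included in part, 8 lay lower and 16 higher with RBFOXi, with a median delta PSI of 0.0162, beside 0.0156 over the 5485 such exons of all genes. The members with the most counts belonged mostly to the constitutive group. DDX5 is the DEAD-box protein that copurifies with RBFOX proteins. Its only tested exon (225 nt, chr17:62496667-62496891 on the minus strand) had PSI values of 0.995 and 0.994 with RBFOXi and 0.986 and 0.996 with SCRM. Its counts ran from 8456 to 8936 per library. The log2 odds difference of that exon was 0.49, with an interval from -1.03 to 2.02. The paralogue of DDX5, DDX17, reached 0.992 and 0.997 against 1 and 0.996 in a 142-nt coding exon. The cold-inducible protein RBM3 had the deepest exon of the set, with 12339 to 14707 counts per library, and PSI values of 0.994, 0.996, 0.988 and 0.996. DHX15, which takes spliceosomes apart, DDX3X, which acts in translation initiation, and RBMX, a nuclear RNA-binding protein, all stayed at or above 0.991 in every library. In the exons of DDX5, DDX3X and RBM3, leaving out SCRM replicate 1 turned the sign of delta PSI, to -0.00156, -0.00187 and -0.00104. Leaving out SCRM replicate 2 turned it in those of DHX15 and RBMX, to 0.000146 and -0.00106.

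**Figure D2:**
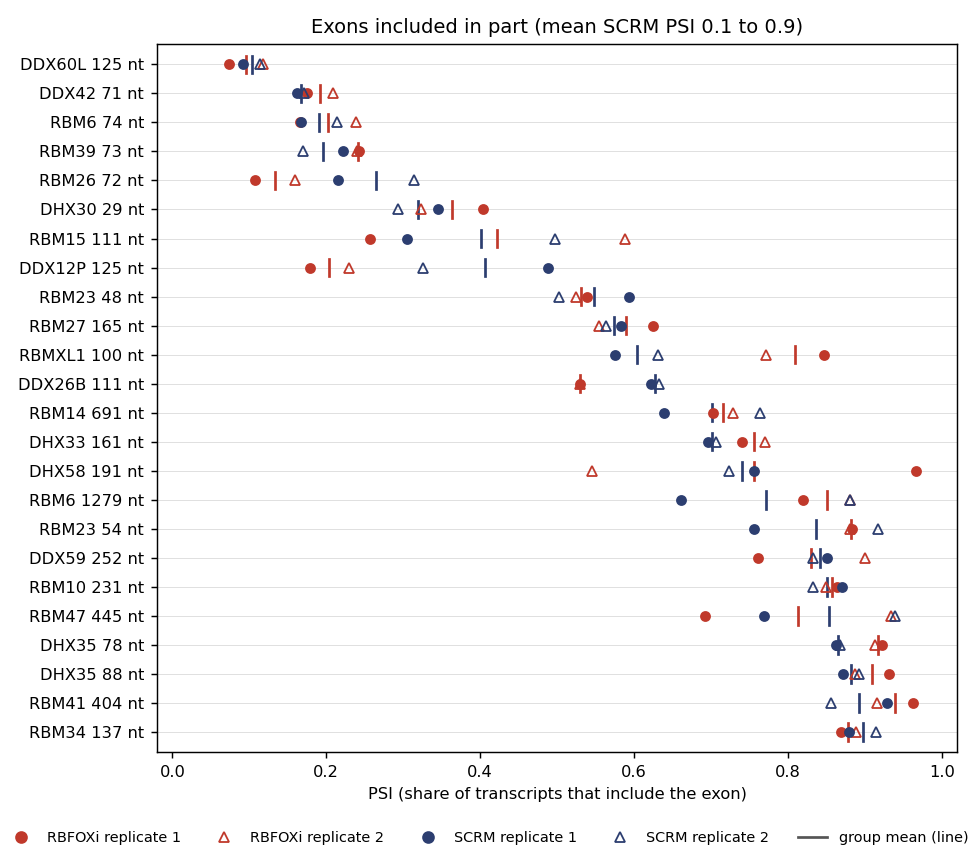
PSI in each of the 4 libraries (horizontal axis, share from 0 to 1) of the 24 member exons with a mean SCRM PSI from 0.1 to 0.9, ordered by that mean. Symbols stand for libraries and short vertical lines for group means. For most exons the RBFOXi and SCRM points interleave, and the spread between replicates is as wide as the gap between the means.

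Spliceosomal helicases were the first group by role. Of the 11 genes listed, 10 had tested exons, and of their 29 exons 0 passed the test, with 17 lower, 12 higher and a median delta PSI of -0.000340. The lowest unadjusted p among them was that of DHX8, which releases the spliced mRNA from the spliceosome. Its 129-nt coding exon (chr17:41598119-41598247, plus strand) was included at 0.954 and 0.956 with RBFOXi and at 0.992 and 0.992 with SCRM. The groups did not overlap and the replicates of each differed by little, but skipping was rare throughout. The log2 odds difference was -2.33 ± 0.69 (SE), the interval -3.82 to -0.84, the unadjusted limma p 0.00481 and the adjusted p 0.9999, over 586 to 884 counts per library.

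DHX35 is a helicase found in catalytically active spliceosomes. Its 130-nt exon (chr20:37653873-37654002, plus strand) had PSI values of 0.715 and 0.807 with RBFOXi and of 1 and 0.892 with SCRM, a delta PSI of -0.185 from only 32 to 48 counts per library (-0.0811 as a plain share of counts, not divided by length). The interval of its log2 odds difference ran from -4.79 to 0.31, with a limma p of 0.0808 before adjustment. A 78-nt exon before it lay the other way, with 0.922 and 0.912 against 0.863 and 0.868, a delta PSI of 0.0521 (interval -0.84 to 2.32). An 88-nt exon near the start of the gene lay at 0.931 and 0.887 against 0.871 and 0.892, with the groups overlapping. Nearby exons of this transcript therefore gave opposite signs at low depth. DDX42, a helicase that associates with the branch site snRNP, had a 71-nt exon in its untranslated leader (chr17:61852468-61852538, plus strand) at 0.175 and 0.209 with RBFOXi and 0.162 and 0.171 with SCRM. The nearest libraries of the groups all but met, the log2 odds difference was 0.24 (interval -0.33 to 0.81), and an antisense gene, CCDC47, overlaps this exon. DDX39B, which recruits export factors to spliced mRNA, had a 93-nt exon at 0.979, 0.983, 0.978 and 0.992, with a delta PSI of -0.00389 that became 0.00340 without SCRM replicate 2.

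The transcription coregulators DDX5, DDX17 and DHX9 gave 6 tested exons, of which 0 passed, with a median delta PSI of 0.000319. The ribosome biogenesis helicases gave 47 exons in 13 of 15 genes, with 0 passing and a median of -0.000677. In this group, DHX33 had a 161-nt coding exon (chr17:5366849-5367009, minus strand) at 0.740 and 0.771 with RBFOXi and at 0.696 and 0.706 with SCRM. Its counts were as low as 36 in 1 library, and the interval of the log2 odds difference was -0.52 to 1.4. A second exon of DHX33, of 112 nt, read 0.981 and 0.979 against 0.880 and 0.974, so that its delta PSI of 0.0528 rested on SCRM replicate 1 and was 0.00619 without it. The same held for the 230-nt exon of DHX57, a gene on none of the lists by role. That exon read 0.991 and 0.989 against 0.894 and 0.988, and its delta PSI went from 0.0490 to 0.00179. DDX31, a nucleolar helicase, had a 112-nt exon with a mean SCRM PSI of 0.992 and a delta PSI of 0.00272. DDX27 and DDX49, also nucleolar, were among the 8 events with an unadjusted p below 0.05, through exons included at 0.971 or more in every library and with delta PSI values of -0.00576 and -0.0160.

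Helicases of translation, mRNA export and decay gave 25 exons in 6 of 8 genes, with 0 passing, 16 lower and 9 higher. DDX19B, which remodels mRNA-protein complexes at the nuclear pore, had a 49-nt coding exon (chr16:70346512-70346560, plus strand) at 0.803 and 0.818 with RBFOXi and at 0.916 and 0.929 with SCRM. The replicates of each group lay far closer together than the groups did. With 46 to 106 counts per library, the log2 odds difference was -1.38 ± 0.65 (SE), with an interval from -2.78 to 0.02 and an unadjusted limma p of 0.0530. The next exon of DDX19B, of 54 nt, read 0.881 and 0.878 against 0.972 and 0.888, and without SCRM replicate 1 its delta PSI shrank from -0.0503 to -0.00828. DDX19B and its neighbour DDX19A are close copies, and reads that fit both could not be assigned by unique alignment. DDX6, a translational repressor and decapping cofactor, had a 147-nt exon at 0.955 and 0.939 against 0.873 and 0.967. SCRM replicate 1 had the low value, and without it the sign of delta PSI turned, to -0.0196. DHX29, which helps ribosomes scan structured leaders, had a 303-nt exon at 0.996 and 0.994 against 0.977 and 0.984, with a delta PSI of 0.0142 and a limma p of 0.0402 before adjustment.

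The RNA sensing helicases, which detect viral RNA, gave 6 exons in 3 of 4 genes with 0 passing. The 191-nt exon of DHX58 showed how wide the replicate spread could be, with 0.967 and 0.545 in the RBFOXi libraries and 0.756 and 0.723 in the SCRM libraries. DHX30, which supports mitochondrial ribosome assembly, carried all 7 exons of the mitochondrial group, 0 of which passed. Its 96-nt exon lay at 0.878 and 0.957 against 0.965 and 0.959, and without RBFOXi replicate 1 its delta PSI went from -0.0448 to -0.00507.

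The RBM splicing regulators gave 47 exons in 11 of 18 genes, 24 lower and 23 higher, with 0 passing and a median delta PSI of -9.27e-05. RBM23 and its paralogue RBM39 are coactivators of splicing and transcription. The 48-nt exon of RBM23 (chr14:23377542-23377589, minus strand) was the most evenly split, at 0.539 and 0.524 with RBFOXi and 0.593 and 0.502 with SCRM. Its log2 odds difference was -0.10 with an interval from -0.77 to 0.58, and without SCRM replicate 1 the sign of delta PSI turned, to 0.0291. A 54-nt exon further on in RBM23 was included at 0.883 and 0.880 against 0.756 and 0.916. Both exons are multiples of 3 in length, so that either choice keeps the reading frame, and both are shown here with 10 nt of each intron (hg19, transcript strand) with the splice site dinucleotides in capitals.
RBM23 48 nt exon, chr14:23377532-23377599, minus strand: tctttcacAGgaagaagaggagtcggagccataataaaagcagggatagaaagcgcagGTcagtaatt
RBM23 54 nt exon, chr14:23374805-23374878, minus strand: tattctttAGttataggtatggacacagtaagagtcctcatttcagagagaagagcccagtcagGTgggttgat

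RBM5, RBM6 and RBM10 are related proteins that regulate exons of apoptosis genes. The 1279-nt coding exon of RBM6 (chr3:50004903-50006181, plus strand) was included at 0.819 and 0.881 with RBFOXi and at 0.661 and 0.881 with SCRM. SCRM replicate 1 alone was low, and without it the delta PSI of 0.0793 became -0.0304. As a plain share of counts, with all libraries, it was 0.00861. The 231-nt exon of RBM10 (chrX:47030427-47030657, plus strand) was steady, at 0.864 and 0.849 against 0.870 and 0.832, with a log2 odds difference of 0.06 and an interval from -0.80 to 0.92. The sign of its delta PSI of 0.00547 turned without RBFOXi replicate 1 or without SCRM replicate 2. RBM5 had a 161-nt exon at 0.978 and 0.944 against 0.941 and 0.969, with overlapping groups, and its delta PSI of 0.00605 became -0.0110 without RBFOXi replicate 1 and -0.00775 without SCRM replicate 1. RBMXL1, a retrotransposed copy of RBMX that was on none of the lists by role, had the largest positive delta PSI of the 271 tested events. Its 100-nt exon (chr1:89453935-89454034, minus strand), shared with the gene KYAT3 (listed as CCBL2), was included at 0.846 and 0.771 with RBFOXi and at 0.576 and 0.630 with SCRM. From 26 to 85 counts per library, the log2 odds difference was 1.44 ± 0.72 (SE), with an interval from -0.12 to 3.0, an unadjusted limma p of 0.0669 and an adjusted p of 0.9999.

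RBM proteins of other RNA steps gave 20 exons in 8 of 9 genes, 7 lower and 13 higher, with 0 passing and 3 below an unadjusted p of 0.05, beside 3.61% of all events. The list was drawn up with results known, and nothing is read from a count of 3. RBM26, which held one of the 3, links polyadenylated nuclear transcripts to decay and has a 72-nt coding exon (chr13:79927288-79927359, minus strand) that was included at 0.108 and 0.160 with RBFOXi and at 0.216 and 0.313 with SCRM. Both RBFOXi libraries lay below both SCRM libraries, and the nearest libraries of the 2 groups were closer than the SCRM replicates were to each other. Delta PSI was -0.131, and stayed between -0.180 and -0.0820 with any 1 library left out. The log2 odds difference was -1.22 ± 0.42 (SE), with an interval from -2.13 to -0.31, an unadjusted limma p of 0.0124 and an adjusted p of 0.9999, over 126 to 399 counts per library. The exon just before it in the transcript begins at either of a pair of 3′ splice sites 9 nt apart (chr13:79928574-79928705, minus strand). The longer form took 0.714 and 0.712 with RBFOXi and 0.768 and 0.803 with SCRM, a delta PSI of -0.0727. Its log2 odds difference was -0.56, with an interval from -1.20 to 0.08 and a limma p of 0.0808 before adjustment. Both choices keep the frame. The 72-nt exon is printed with 10 nt of each intron and the splice site dinucleotides in capitals.
RBM26 72 nt exon, chr13:79927278-79927369, minus strand: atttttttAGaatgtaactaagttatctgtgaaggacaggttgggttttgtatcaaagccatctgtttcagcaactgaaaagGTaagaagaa

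RBM27, the paralogue of RBM26, had a 165-nt exon (chr5:145631274-145631438, plus strand) at 0.624 and 0.555 against 0.583 and 0.564. The groups overlapped, the log2 odds difference was 0.11 (interval -0.71 to 0.93), and without RBFOXi replicate 1 delta PSI was -0.0188. RBM8A, a core protein of the exon junction complex, had the lowest unadjusted limma p of the members, 0.00420, in a 137-nt exon included at 0.996 and 0.999 with RBFOXi and at 1 and 1 with SCRM, a delta PSI of -0.00251. RBM19, which acts in ribosomal RNA processing, had 1 and 1 against 0.991 and 0.989 in a 121-nt exon, a limma p of 0.0439 before adjustment. The last of the 8 events below an unadjusted p of 0.05 was a 68-nt untranslated exon of RBM25, a splicing regulator, at 0.0158 and 0.0191 against 0 and 0.0127. Of these 8 events, therefore, that of RBM26 alone had an absolute delta PSI of 0.1 or more.

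Some members could not be tied to 1 gene or product. The 691-nt exon listed under RBM14 (chr11:66410921-66411611, plus strand) is annotated in GENCODE as an exon of the next gene, RBM4, and of the readthrough transcript of both. It was the deepest exon in the middle range, with 6241 to 9480 counts per library, and read 0.703 and 0.729 with RBFOXi and 0.638 and 0.763 with SCRM. Its log2 odds difference was 0.08, with an interval from -0.57 to 0.73, and its sign turned without SCRM replicate 1, to a delta PSI of -0.0473. RBM4 itself and RBM17 had no tested skipped exon. The 137-nt exon of RBM34 overlaps ARID4B and lay at 0.869 and 0.888 against 0.879 and 0.915. The 252-nt exon of DDX59 read 0.760 and 0.90 against 0.850 and 0.833, and its sign turned without RBFOXi replicate 1. The pseudogene DDX12P gave the largest negative difference, in a 125-nt stretch (chr12:9576820-9576944, minus strand) at 0.179 and 0.229 with RBFOXi and 0.488 and 0.325 with SCRM. Delta PSI was -0.203, and -0.121 without SCRM replicate 1. With 35 to 66 counts per library the interval of its log2 odds difference was -2.82 to 0.06 and the limma p 0.0592 before adjustment, and reads shared with DDX11 may be divided between the copies. An 87-nt exon of DDX12P lay at 0.930 and 0.901 against 1 and 0.961. DDX26B, from 9 to 42 counts per library, had a 111-nt exon at 0.530 and 0.530 against 0.622 and 0.633. The replicates of DDX26B agreed closely, but at that depth the interval ran from -2.22 to 1.26.

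**Figure D3:**
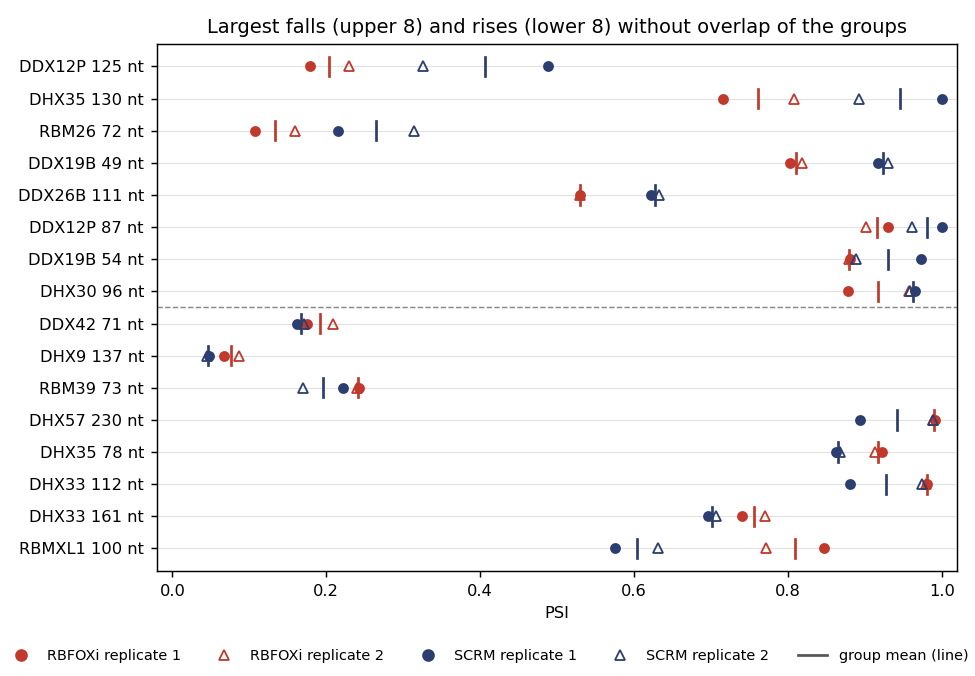
PSI in each library (horizontal axis, share from 0 to 1) of the 8 member exons with the largest negative (upper block) and the 8 with the largest positive delta PSI (lower block) among exons whose groups did not overlap. Symbols stand for libraries and short lines for group means. None of the 16 passed the adjusted test, and in DHX57, DHX33 112 nt and DDX19B 54 nt SCRM replicate 1 alone stands off.

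Exons that carry a stop codon in the frame of the exon before them form a class of their own among these genes. Only member exons with a mean SCRM PSI below 0.9 were considered, so the levels given here are bounded by that limit. Of these, 13 exons of 11 genes match no annotated protein-coding transcript and hold a stop in every frame that the annotation gives. In 9 of the 13 the mean SCRM PSI was below 0.1, and over all 13 it ran from 0.000712 to 0.882. The highest value was that of the 88-nt exon of DHX35, which matches no annotated transcript. It lies within a 93-nt exon that has the same end, so reads inside it fit both, and its level need not be that of a stop-carrying form. Delta PSI ran from -0.0411 to 0.0452, with a median of 0.00265. It was positive in 10 and negative in 3, and the groups did not overlap in 2, DHX9 and RBM39 73 nt, beside 30.8% of all events. Of the 2220 exons of all genes with a SCRM PSI below 0.1, 1458 also lay higher and 761 lower with RBFOXi. Of the 13 exons, 0 passed the test. PSI counts the transcripts that survive, and the share that was spliced in before decay was not measured.

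Of these exons, 8 with a SCRM PSI below 0.5 are given below from the first base to the stop codon, which is in capitals (hg19, transcript strand). The exon of RBM25, which can be read in more than 1 frame, and that of DHX30, whose stop begins at base 3, are left out, and that of DDX52 is not shown. The sequences show how soon each frame closes.
RBM39 73 nt exon, chr20:34328448-34328519, minus strand: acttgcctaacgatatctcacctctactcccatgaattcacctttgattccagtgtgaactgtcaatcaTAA
RBM39 72 nt exon, chr20:34322137-34322179, minus strand: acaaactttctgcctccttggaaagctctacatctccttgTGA
RBM39 89 nt exon, chr20:34308480-34308524, minus strand: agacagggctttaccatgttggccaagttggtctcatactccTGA
DHX9 137 nt exon, chr1:182824712-182824754, plus strand: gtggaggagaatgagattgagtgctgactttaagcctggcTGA
DDX46 117 nt exon, chr5:134125796-134125812, plus strand: gtgatgctgtcagaTAA
DDX39B 120 nt exon, chr6:31506756-31506836, minus strand: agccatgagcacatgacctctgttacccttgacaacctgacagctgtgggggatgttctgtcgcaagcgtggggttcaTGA
RBM18 125 nt exon, chr9:125006120-125006147, minus strand: aggacctcagcttacatctctctatTAA
RBM6 54 nt exon, chr3:50103012-50103059, plus strand: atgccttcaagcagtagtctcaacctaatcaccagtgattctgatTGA

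RBM39 held 3 of the 13 exons. Its 73-nt exon, annotated in transcripts subject to nonsense-mediated decay, was the most used of the 3, at 0.243 and 0.240 with RBFOXi and 0.222 and 0.170 with SCRM. Both RBFOXi libraries lay above both SCRM libraries, by less than the SCRM replicates differed. Delta PSI was 0.0452, and 0.0193 without SCRM replicate 2 or 0.0711 without SCRM replicate 1. As a plain share of counts, not divided by length, it was 0.0678. With all libraries the log2 odds difference was 0.39 ± 0.27 (SE), the interval -0.20 to 0.98 and the unadjusted limma p 0.173, over 558 to 1603 counts per library. The same exon also stands in a pair of mutually exclusive exons, against a 50-nt exon, where it took 0.119 and 0.112 with RBFOXi and 0.0822 and 0.0877 with SCRM. There the log2 odds difference was 0.49, with an interval from 0.09 to 0.89, a limma p of 0.0223 before adjustment and an adjusted p of 0.99998, but both events count many of the same reads. The 72-nt exon of RBM39 was used at 0.0203 and 0.0338 against 0.0261 and 0.0233, and the 89-nt exon at 0.00177 or less in every library.

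DHX9, a helicase that resolves double-stranded RNA and RNA-DNA hybrids, had a 137-nt exon (chr1:182824712-182824848, plus strand) at 0.0676 and 0.0860 with RBFOXi and at 0.0481 and 0.0445 with SCRM. The groups did not overlap, and the RBFOXi replicates differed from each other by about as much as the nearest libraries of the 2 groups. The log2 odds difference was 0.75 ± 0.36 (SE), with an interval from -0.02 to 1.51, an unadjusted limma p of 0.0550 and an adjusted p of 0.9999, over 82 to 708 counts per library. Leaving out any 1 library kept delta PSI between 0.0212 and 0.0397, and as a plain share of counts it was 0.0874. The other rarely used exons did not separate the groups. DDX46, a helicase of early spliceosome assembly, had 0.00873 and 0.0528 against 0.0120 and 0.0417 in its 117-nt exon, so that the replicates of each group differed more than the groups. The 105-nt exon of RBM25 was at 0.00992 and 0.0139 against 0.0110 and 0.0123, the 125-nt exon of RBM18 at 0.0364 and 0.0180 against 0.0143 and 0.0192, and the exons of DDX39B, DDX52 and RBM6 at 0.00692 or less throughout. DHX30 had the most used exon of this class under a SCRM PSI of 0.5, a 29-nt exon whose frame closes at once, at 0.404 and 0.323 with RBFOXi and 0.345 and 0.293 with SCRM (interval of the log2 odds difference -0.83 to 1.38).

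**Figure D4:**
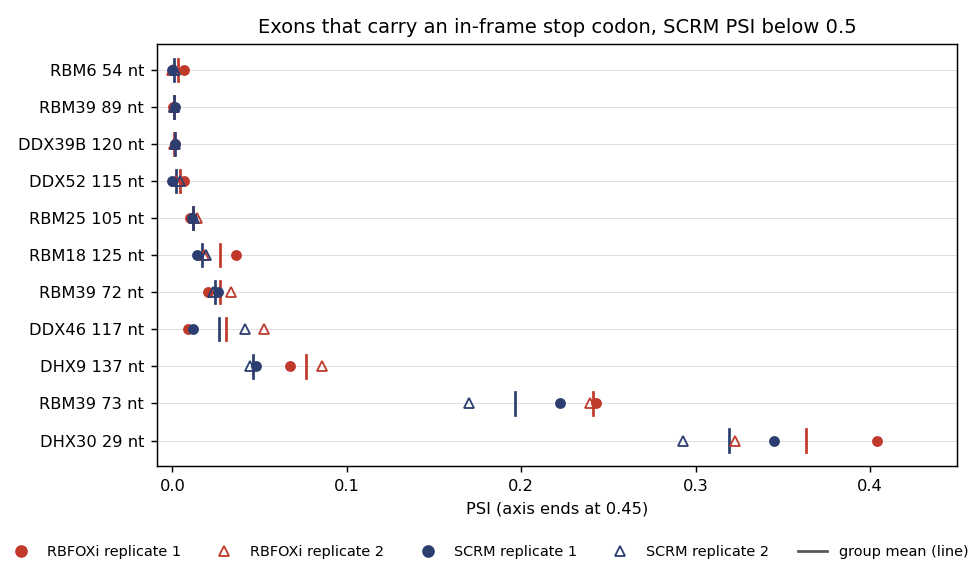
PSI in each library (horizontal axis, ending at 0.45) of the 11 exons that carry an in-frame stop codon, match no protein-coding transcript and had a mean SCRM PSI below 0.5. Symbols stand for libraries and short lines for group means. Of these exons, 8 stay at or under 0.0528 in every library, and the RBFOXi and SCRM points are apart for DHX9 and RBM39 73 nt.

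Mutually exclusive exons gave 187 tested member events in 49 genes. The deposited counts include reads inside the exons, so neighbouring exons that are both always included can also give a middle PSI. The 137-nt exon of DDX3X, for instance, had a mean SCRM PSI of 0.997 as a skipped exon. Yet the 154-nt exon paired with it had a mean SCRM PSI of 0.555. A PSI here is a share of reads between the paired exons, and need not show an exclusive choice. The test called 0 of the member events, and 0 of the 26176 events of all genes (0%). At an unadjusted p below 0.05 there were 4 member events, beside 1.51% of all events, and the groups did not overlap in 41 (21.9%, beside 24.4%), with 14 lower (7.49%, beside 8.41%) and 27 higher with RBFOXi (14.4%, beside 16%). Here SCRM replicate 1 stood apart: it was farthest from the other 3 libraries in 96 of the 187 events (51.3%, beside 55.1% of all events). It lay outside the range of the other 3 in 133 (71.1%), a share that was not computed over all events or for another library. The SCRM replicates differed by a median of 0.0396 and the RBFOXi replicates by 0.0205, and delta PSI was positive in 116 events and negative in 71.

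In RBM33, a 172-nt exon (chr7:155493467-155493638, plus strand) paired with a 209-nt exon in 3 overlapping events that share reads. In 1 of the 3 the 172-nt exon took 0.539 and 0.540 with RBFOXi but 0.834 and 0.490 with SCRM, so that 1 SCRM library lay above both RBFOXi libraries and the other below them. RBM33 was named after its values were seen, since this was the member event called when the replicate number was used as a block, at an adjusted limma p of 0.0495 (1 of 187, beside 0.294% of all events with the block), and it was not called without the block, where the p before adjustment was 0.160. Without SCRM replicate 2, 12 member events were called (6.42%, beside 1400 events or 5.35% of all genes' events under the same setting), in RBM33, DDX50, DHX40, DHX29, RBM23 and RBM43, each against SCRM replicate 1 alone. Without SCRM replicate 1, 0 were called. RBM43, a little-studied RBM protein, had a 211-nt exon (chr2:152112047-152112257, minus strand) that took 0.555 and 0.585 with RBFOXi and 0.337 and 0.506 with SCRM against a 101-nt exon. Its log2 odds difference was 0.87, with an interval from -0.04 to 1.78 and a limma p of 0.0594 before adjustment. Delta PSI was 0.148, went to 0.232 and was called without SCRM replicate 2, and was 0.0643 without SCRM replicate 1. RBM26-AS1 gave 0.625 and 0.580 against 0.342 and 0.572, again with SCRM replicate 1 low, from 11 to 67 counts per library. In DHX35 a 55-nt exon paired with a 96-nt exon took 0.218 and 0.264 with RBFOXi and 0.374 and 0.334 with SCRM. In that event the replicates agreed better than the groups, the log2 odds difference was -0.79 with an interval from -1.54 to -0.03, the unadjusted limma p was 0.0422 and the adjusted p 0.99998.

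For alternative 3′ splice sites 0 of 26 member events and 0% of all 3009 were called. At an unadjusted p below 0.05 there were 0 member events, beside 3.32% of all, and the groups did not overlap in 7 (26.9%, beside 30.8%). In 6 genes the sites were 3 nt apart, so that the choice adds or removes 1 amino acid in a coding exon. DDX3X took the upstream site at 0.737 and 0.702 with RBFOXi and 0.719 and 0.730 with SCRM, with a log2 odds difference of -0.03 and an interval from -0.44 to 0.38. DDX54, a nucleolar helicase, took it at 0.628 and 0.562 against 0.558 and 0.557 (interval -0.19 to 0.63), RBM33 at 0.571 and 0.480 against 0.510 and 0.423, and RBM7, a subunit of a nuclear exosome targeting complex, at 0.692 and 0.715 against 0.691 and 0.659. RBM8A took it at 0.910 to 0.931 and RBM42 at 0.956 to 0.984 over the 4 libraries. Delta PSI of these 6 ran from -0.00470 to 0.0592. DDX39B divided its transcripts between sites 130 nt apart at 0.465 and 0.533 against 0.457 and 0.526, from 1719 to 3695 counts per library. The interval of its log2 odds difference was -0.36 to 0.44, and replicate 1 of each group was lower than replicate 2. RBM39 used a site 18 nt upstream at 0.371 and 0.404 against 0.386 and 0.426. DDX49 favoured a site 71 nt upstream at 0.879 and 0.916 against 0.924 and 0.948, without overlap of the groups and with a limma p of 0.172 before adjustment.

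For alternative 5′ splice sites 0 of 11 member events and 0% of all 2281 were called. There were 0 member events at an unadjusted p below 0.05, beside 3.59% of all, and 0 without overlap, beside 30.1%. DDX17 used a site 6 nt further into the intron at 0.255 and 0.223 with RBFOXi and 0.220 and 0.234 with SCRM, and RBM10 a site 3 nt further at 0.402 and 0.463 against 0.511 and 0.402. For retained introns 0 of 9 member events and 0% of all 1034 were called. At an unadjusted p below 0.05 there were 0, beside 1.74%, and the groups did not overlap in 2 of the 9, beside 27.9%. RBMX kept a stretch of 2740 nt near its 3′ end (chrX:135954505-135957244, minus strand) at 0.847 and 0.768 with RBFOXi and 0.908 and 0.848 with SCRM. Delta PSI was -0.0701, and -0.00218 as a plain share of counts. From 11256 to 13296 counts per library, the log2 odds difference was -0.78 ± 0.44 (SE), with an interval from -1.81 to 0.25 and an unadjusted limma p of 0.118. RBM19 kept a 562-nt intron at 0.592 and 0.514 against 0.477 and 0.547. DDX11, a DNA helicase of sister chromatid cohesion, kept a 734-nt stretch that holds a further exon at 1 and 0.977 against 0.950 and 0.953, and DDX41, a helicase of late splicing steps, kept introns of 277 nt and 426 nt at 0.0285 to 0.0798 over the libraries.

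**Figure D5:**
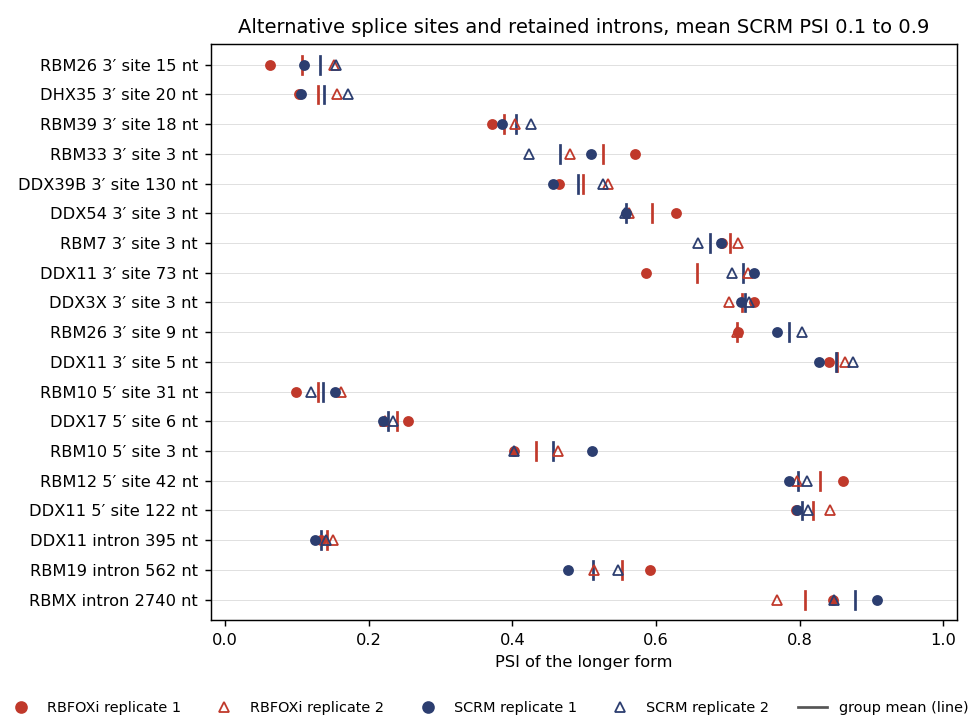
PSI of the longer form in each library (horizontal axis, share from 0 to 1) of the member events with a mean SCRM PSI from 0.1 to 0.9 among the 3′ splice site, 5′ splice site and intron events, with the distance between sites or the intron length in the label. Symbols stand for libraries and short lines for group means. The RBFOXi and SCRM points overlap in most rows, and are clearly apart in the RBM26 9 nt 3′ site. In the DDX54 and RBM7 3′ sites and the RBMX intron they are apart by less than the symbols are wide.

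The RBFOX motif was then looked for beside the exons, since it is the sequence that the decoy imitates. Its DNA letters, TGCATG, were searched on the transcript strand in up to 300 nt of the intron on either side. It stood downstream of 12 of the 238 member exons (5.04%), beside 8.36% of the 30617 exons of all genes, and upstream of 20 (8.40%), beside 8.16%. The shorter core GCATG stood downstream of 53 member exons (22.3%, beside 24.1%). Of the 12 exons with the motif downstream, 7 lay lower and 5 higher with RBFOXi, 0 passed the test, and their median delta PSI was -0.000705, against -0.000196 in the member exons without it. Over all genes the median delta PSI was -0.00126 in the 2559 exons with the motif downstream and -6.90e-05 in those without, and 14 of the 2559 passed the test. On the log2 odds scale the member medians lay the other way, at 0.12 with the motif downstream and 0.08 without, whereas over all genes they were -0.10 and 0.07. Among the 20 member exons with the motif upstream the median was -0.000249, with 12 lower and 8 higher. A match is a stretch of letters, and binding was not measured.

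The windows below are those downstream of the member exons with the motif whose delta PSI was largest in size, and that of RBM3, the deepest exon (hg19, transcript strand, motif in capitals). The motif stood 168 nt after the 125-nt stretch of DDX12P (delta PSI -0.203, and -0.121 without SCRM replicate 1), 177 nt after the 230-nt exon of DHX57 (0.0490, resting on SCRM replicate 1), 77 nt after the 88-nt exon of DDX10 (-0.0350), 122 nt after the 93-nt exon of DHX37 (-0.0255) and 204 nt after the 107-nt exon of RBM3 (0.00263). The exons of RBM26, RBMXL1, DDX19B 49 nt and DHX35 130 nt, with the other large differences, had no TGCATG within 300 nt downstream. With the shorter core or a wider window this did not hold for all of them. An absolute delta PSI of 0.1 or more was seen in 3 of the 53 member exons with GCATG within 300 nt downstream, beside 402 of 7373 of all genes. It was seen in 2 of the 26 with TGCATG within 500 nt, beside 252 of 3851. Both counts include DDX12P.
DDX12P, chr12:9576637-9576662, minus strand: tcagcaagtaTGCATGtatttcagta
DHX57, chr2:39095132-39095157, minus strand: gtatgtaggtTGCATGacactgtgaa
DDX10, chr11:108586760-108586785, plus strand: acttctaggtTGCATGtttatgcttc
DHX37, chr12:125459828-125459853, minus strand: gtgtcacctcTGCATGtagcactggg
RBM3, chrX:48434249-48434274, plus strand: cgactggtccTGCATGaggccgagaa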

How the data were processed

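RNA-seq of 4 U87MG libraries (2 RBFOXi, 2 SCRM) was deposited as 5 tables of splicing events, 1 per event type. Per the labels and the study's methods, the authors mapped paired-end reads with STAR 2.4.2a (hg19, unique alignments only) and counted inclusion and skipping reads per event with rMATS against UCSC known genes. The deposited values are counts with 2 replicates per cell and effective lengths. The tables' columns of p-values, FDR and inclusion levels hold the authors' own comparison and were not used.

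PSI was computed from counts divided by effective length. An event entered the test if no library had fewer than 5 counts, the libraries averaged 20 or more and each form had 4 or more. The test was limma 3.58.1 (R 4.3.3) on log2((inclusion + 0.5)/(skipping + 0.5)). Its variance was trended on the inclusion and skipping counts of each event, combined so that the rarer form weighs most. Adjusted p-values are Benjamini-Hochberg values over all events of the type. Skipped exon counts summed to 114415530 to 136097319 per library. Intervals are at 95%. An exon with several events was described by the event with most counts. Annotations came from GENCODE 44 lifted to hg19, and sequences from the GRCh37 genome.

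The members, the lists by role and the tests were chosen with earlier results of these data known. Named exons were the 8 largest negative and 8 largest positive differences without overlap of the groups, the 10 exons with most counts among those included in part (1 per gene), up to 3 events of each other type, and 1 exon for each of a list of well-known members. Any other exon given with values was chosen after its values were seen. Replicate numbers come from the sample descriptions and mark no shared culture. The sequence of 1 exon is not reported here.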

Additional observations from a re-analysis of the deposited data

How the results depend on the processing

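No skipped exon, 3′ splice site, 5′ splice site or intron of a member was called under any setting tried. Of the 41 named events, 39 remained with a filter of 20 counts per library. With 1 event per exon, a setting run for skipped exons only, 32 remained. With all 4 libraries, only taking PSI as a plain share of counts could change delta PSI, since the other settings left PSI as it was. Under the plain share the 41 named events kept their direction. Their size did not always hold: with PSI as a plain share of counts, not divided by effective length, delta PSI moved by more than 1.5 times in 28 of the 41, from -0.0701 to -0.00218 in the RBMX intron, 0.0793 to 0.00861 in RBM6, 0.0370 to 0.00416 in the DDX11 intron, -0.185 to -0.0811 in DHX35 130 nt and 0.0305 to 0.0874 in DHX9. The planned edgeR test was not run, since each deposited cell joins 2 counts, and a quasi-binomial F test chosen after seeing the data took its place. Called skipped exons of all genes went from 27 to 1 with a pseudocount of 0.1, 119 with the replicate block, 44 with a filter of 1 count per library, 48 with the quasi-binomial test and 1 to 69 with a library left out (69 without RBFOXi replicate 1, 2 without SCRM replicate 1, 1 without SCRM replicate 2). Called mutually exclusive exons of all genes went from 0 to 2 with a pseudocount of 1, 5 with centred log2 odds, 77 with the replicate block, 4 with the quasi-binomial test and 4 to 1400 with a library left out, the most without SCRM replicate 2. Those of the members went from 0 to 1 with the replicate block, and to between 0 and 12 with a library left out. The quasi-binomial test called 2 alternative 3′ and 2 alternative 5′ splice sites of all genes, and leaving out a library gave 0 to 12 and 0 to 5. With the replicate block the lowest adjusted limma p of a skipped exon of the members was 0.114 (RBM26). Same-numbered libraries deviated together by a correlation of 0.0836 to 0.118 over the 5 event types, and with 2 pairs the numbers were not taken as pairing the samples. The cause of these shifts was not tested.

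With a library left out, delta PSI changed sign in 15 skipped exons, over these ranges: DDX39B -0.0112 to 0.00340, DDX3X -0.00187 to 0.00751, DDX5 -0.00156 to 0.00940, DDX59 -0.0811 to 0.0582, DDX6 -0.0196 to 0.0739, DHX15 -0.00186 to 0.000146, RBM10 -0.0134 to 0.0243, RBM14 -0.0473 to 0.0774, RBM23 -0.0616 to 0.0291, RBM25 -0.00178 to 0.00222, RBM27 -0.0188 to 0.0504, RBM3 -0.00104 to 0.00629, RBM5 -0.0110 to 0.0231, RBM6 -0.0304 to 0.189 and RBMX -0.00106 to 0.00404. Of the 18 sign changes, 9 came without SCRM replicate 1, 4 without SCRM replicate 2, 4 without RBFOXi replicate 1 and 1 without RBFOXi replicate 2. The RBFOX motif stood within 500 nt downstream of 10.9% and upstream of 13.9% of member exons, and within 200 nt upstream of 4.20%, and GCATG within 300 nt of 22.3% downstream and 25.6% upstream.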

Other observations

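Helicases with RNA substrates that carry other names gave a like picture. In a list of 16 such genes, 14 had tested skipped exons, and 0 of their 47 exons passed the test, with 24 lower and 23 higher with RBFOXi. The exon with the lowest unadjusted p belonged to EIF4A2, a translation initiation helicase of the same DEAD-box fold. Its 140-nt exon (chr3:186502751-186502890, plus strand) was included at 0.530 and 0.614 with RBFOXi and at 0.666 and 0.753 with SCRM. Both RBFOXi libraries lay below both SCRM libraries, with a delta PSI of -0.138, a log2 odds difference of -0.88 (interval -1.48 to -0.28), a limma p of 0.00711 before adjustment and an adjusted p of 0.9999. The other exon of the list below an unadjusted p of 0.05 was in SNRNP200, a spliceosomal helicase, included at 0.997 or more in every library.

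The proteins that form a large splicing complex with RBFOX factors include DDX5. Of the 7 genes listed, 6 had tested skipped exons, and 0 of 35 exons passed, with 13 lower and 22 higher. HNRNPM, a repressor and activator of exons in that complex, had a 45-nt exon at 0.9752 and 0.973 with RBFOXi and 0.986 and 0.987 with SCRM, with a delta PSI of -0.0123 and a limma p of 0.0222 before adjustment.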
